A study of Mus musculus with 42 samples.

Results

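Joint soft tissue labelled RST was compared with joint soft tissue labelled LST, both taken on day 35 in a mouse study of knee arthroplasty, surgery that replaces a joint with an implant. The comparison was defined by the sample titles, as RST day 35 replicates 1 to 4 against LST day 35 replicates 1 to 4, which are 8 of the 42 libraries of the series. All genes with enough counts entered it, 16149 of the 36604 listed. The other joint libraries, 16 in number, were RST on days 3, 7, 14 and 21, and day 35 was the day on which both codes were sampled.

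Every mouse behind the 8 libraries was C57BL/6 wild type, with no transgene or drug treatment named in the labels. The RST group is joint soft tissue with the time point label RST day 35. The LST group is the same tissue with the label LST day 35. Neither code is explained in the labels and no age is stated. Whether replicates are separate animals or pools is not said either, so a p-value here is set against library-to-library spread that could be partly technical. The stated purpose of the series was to follow the pathways at work in tissue repair after the operation.

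A joint capsule is lined by synovium, a thin layer of fibroblasts and macrophages that makes the lubricant of the joint, hyaluronan and lubricin. After an injury, fibroblasts lay down collagens and matricellular proteins, which are secreted glycoproteins that tune how cells hold on to the matrix. Metalloproteases and cathepsins then cut and remodel that matrix, and macrophages clear debris and lipid.

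On day 35, 9 of 20 genes of the lubricated lining were higher in RST than in LST. So were 8 of 19 metalloproteases and their inhibitors, 15 of 27 matricellular genes and 14 of 24 genes of recruited and lipid-handling macrophages. These lists were chosen with earlier results of these data known, so their shares are a description and not a test. By edgeR's quasi-likelihood test 479 of 16149 genes passed an adjusted p below 0.05, which is 2.97% of genes tested, with 471 higher in RST (2.92%) and 8 lower (0.0495%). At least 2-fold apart were 350 of the rises and 7 of the falls, and 127 rises reached 4-fold, 57 reached 8-fold and 28 reached 16-fold. The median log2 fold change was 1.36 over the 471 rises and 0.02 over all genes. The lowest RST library stood above the highest LST library in 458 of the genes that passed, against 1636 of all genes (10.1%), and the reverse held for 6, against 306 of all genes (1.89%). The 471 genes held 1.13, 1.47, 1.18 and 1.97% of all counts in RST libraries 1 to 4, against 0.541, 0.445, 0.522 and 0.531% in LST libraries 1 to 4. These genes were picked as higher in RST in the same libraries. Their share, median and lack of overlap follow in part from that choice and are a description. A log2 fold change is RST over LST throughout, given with its standard error, and a level is in CPM, which are counts scaled to a common library size, on the scale of edgeR's TMM normalisation.

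RST replicate 4 was the highest RST library for 360 of the 471 genes (76.4%, against 27.5% of all genes), and RST replicate 1 the lowest for 274 (58.2%, against 30.2% of all genes). With RST replicate 4 left out the count that passed was 182, without RST replicate 2 it was 318, and without LST replicates 2, 3 and 4 it was 215, 290 and 266. The first principal component of the 8 libraries held 42.2% of the variance, with RST libraries at 12.1 to 45.9 and LST libraries at −36.8 to −21.7. Total counts were 21849869 to 24993500 per RST library and 23275924 to 28024003 per LST library.

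**Figure D1:**
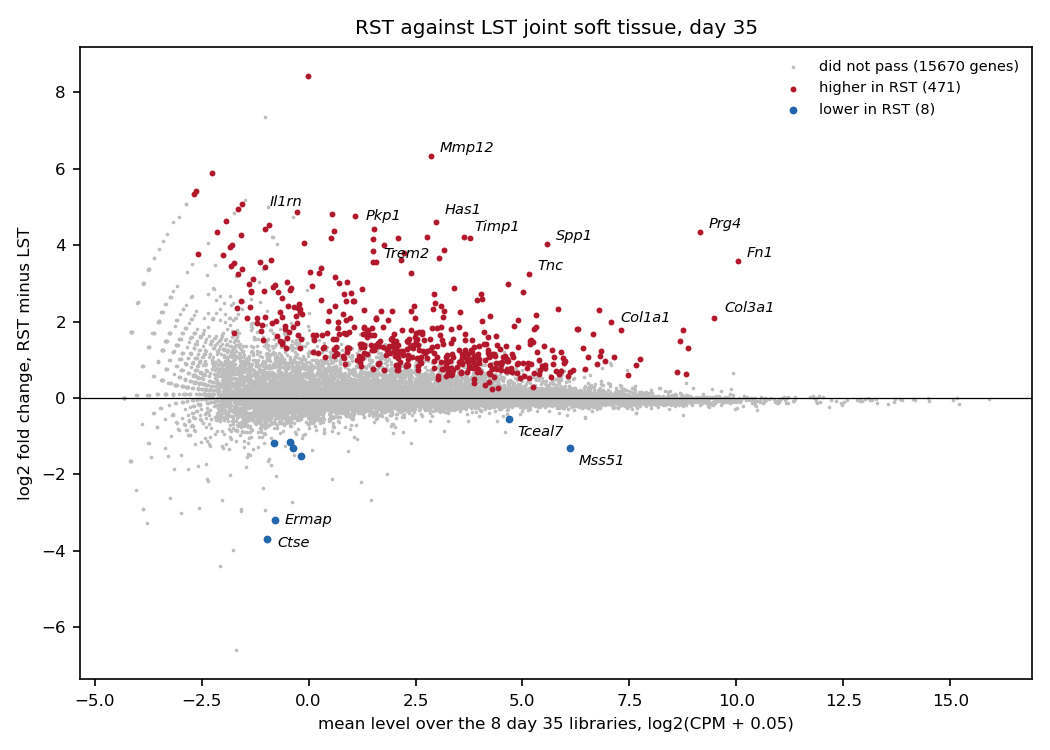
Log2 fold change of RST against LST on day 35 (vertical axis) by mean level over the 8 libraries, log2(CPM + 0.05) (horizontal axis), 1 point per gene tested. The 471 red genes higher in RST spread over levels up to those of Fn1 and Prg4, the 8 blue genes are lower, and the grey genes of highest level lie close to 0.

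The tissue held muscle, connective tissue, vessels and fat in both groups. Myh4, the fast myosin heavy chain of skeletal muscle, ran from 57900 to 63000 CPM in RST and from 58200 to 67900 CPM in LST, so the libraries were rich in muscle RNA. The fibroblast markers Pdgfra and Dcn, the endothelial marker Pecam1 and the fat cell marker Adipoq were present in all 8 libraries. The skin keratins Krt5 and Krt14 had 0 counts in RST and 3 and 2 counts in LST. A further skin keratin, Krt10, was present in both groups, at 3.39 to 4.97 CPM in RST and 3.79 to 5.03 CPM in LST. Of 4 synovial lining markers, Prg4 and Has1 were higher in RST without overlap, whereas Clic5 had medians of 273 CPM in RST and 306 CPM in LST, and Cd55 had medians of 75.8 CPM in RST and 64.6 CPM in LST. In bulk tissue, fewer cells of a type and less RNA per cell cannot be told apart. Genes encoded in mitochondria took 9.91 ± 0.682% of counts in RST and 9.82 ± 0.58% in LST (SD, n = 4 each), a difference of 0.091 percentage points (two-sided exact permutation p = 0.83).

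Of 20 genes of lining and lubrication 9 rose, with a median log2 fold change of 0.54 over the list against 0.02 over all genes. Prg4 encodes lubricin, the glycoprotein that coats joint surfaces. It stood at 424, 1436, 621 and 1865 CPM in RST libraries 1 to 4, against 77.0, 14.4, 47.8 and 74.1 CPM in LST libraries 1 to 4. The lowest RST library held over 5 times the level of the highest LST library, and RST replicates 2 and 4 were the high ones. Its log2 fold change was 4.35 ± 0.55 (edgeR adjusted p = 6.87e-05; chromosome 1, 150449412 to 150466165, minus strand, mm10). Prg4 overlaps Tpr on the opposite strand, so a part of its reads may not be its own. Over the 8 libraries the mean level of Tpr was 145 CPM, which is 25.5% of that of Prg4. It lay above the mean of 53.3 CPM that Prg4 had in LST, so the LST level of Prg4 is the less certain one.

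Has1, a synthase of hyaluronan, had 7.59, 15.3, 8.75 and 28.7 CPM in RST libraries 1 to 4, against 0.895, 0.319, 0.511 and 0.767 CPM in LST libraries 1 to 4. The groups were apart in every library, with RST replicate 4 highest (log2 fold change 4.60 ± 0.71, edgeR adjusted p = 0.000487; chromosome 17, 17843323 to 17855205, minus strand). Cemip, which binds hyaluronan and starts its breakdown, had 6.64, 4.80, 3.01 and 7.08 CPM in RST libraries 1 to 4, against 0.330, 0.137, 0.128 and 0.409 CPM in LST libraries 1 to 4. Its RST libraries lay closer together than those of Has1 (log2 fold change 4.43 ± 0.59, edgeR adjusted p = 0.000117). Cd44, the hyaluronan receptor, rose by 2.14 ± 0.34 on the log2 scale and Ugdh, the enzyme that makes the sugar precursor of hyaluronan, by 1.18 ± 0.23 (edgeR adjusted p = 0.000634 and 0.0053). The other synthases did not pass, with log2 fold changes of 0.56 ± 0.45 for Has2 and 0.07 ± 0.29 for Has3, and the hyaluronidases Hyal1 and Hyal2 stood at −0.08 ± 0.18 and −0.02 ± 0.09.

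Htra1, a secreted serine protease, had 74.3, 131, 86.6 and 189 CPM in RST and 35.8, 30.2, 32.7 and 38.2 CPM in LST in libraries 1 to 4 of each group, with no overlap. Its log2 fold change was 1.81 ± 0.26 (edgeR adjusted p = 0.000259). Hbegf, a growth factor of the epidermal growth factor family, rose by 1.08 ± 0.22 (edgeR adjusted p = 0.00627). Cdh11, the cadherin that joins lining fibroblasts, rose by 1.55 ± 0.39, and Tnfaip6, which links proteins to hyaluronan, by 2.27 ± 0.62 (edgeR adjusted p = 0.0292 and 0.0464). Cdh11 and Tnfaip6 each passed in 2 of the 8 fits that leave out 1 library. Cdh11 was lost without RST replicates 1 or 4 or any 1 LST library (edgeR adjusted p = 0.0547 to 0.117), and Tnfaip6 without RST replicates 2 or 4 or any 1 LST library (0.0647 to 0.346). The list as a whole had 7 to 9 members that rose in those fits. Dlx3, a homeobox factor that is on no list, had 2.04, 5.45, 3.39 and 10.4 CPM in RST libraries 1 to 4, against 0.283, 0.0456, 0.341 and 0.512 CPM in LST libraries 1 to 4 (log2 fold change 4.16 ± 0.60, edgeR adjusted p = 0.000259).

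**Figure D2:**
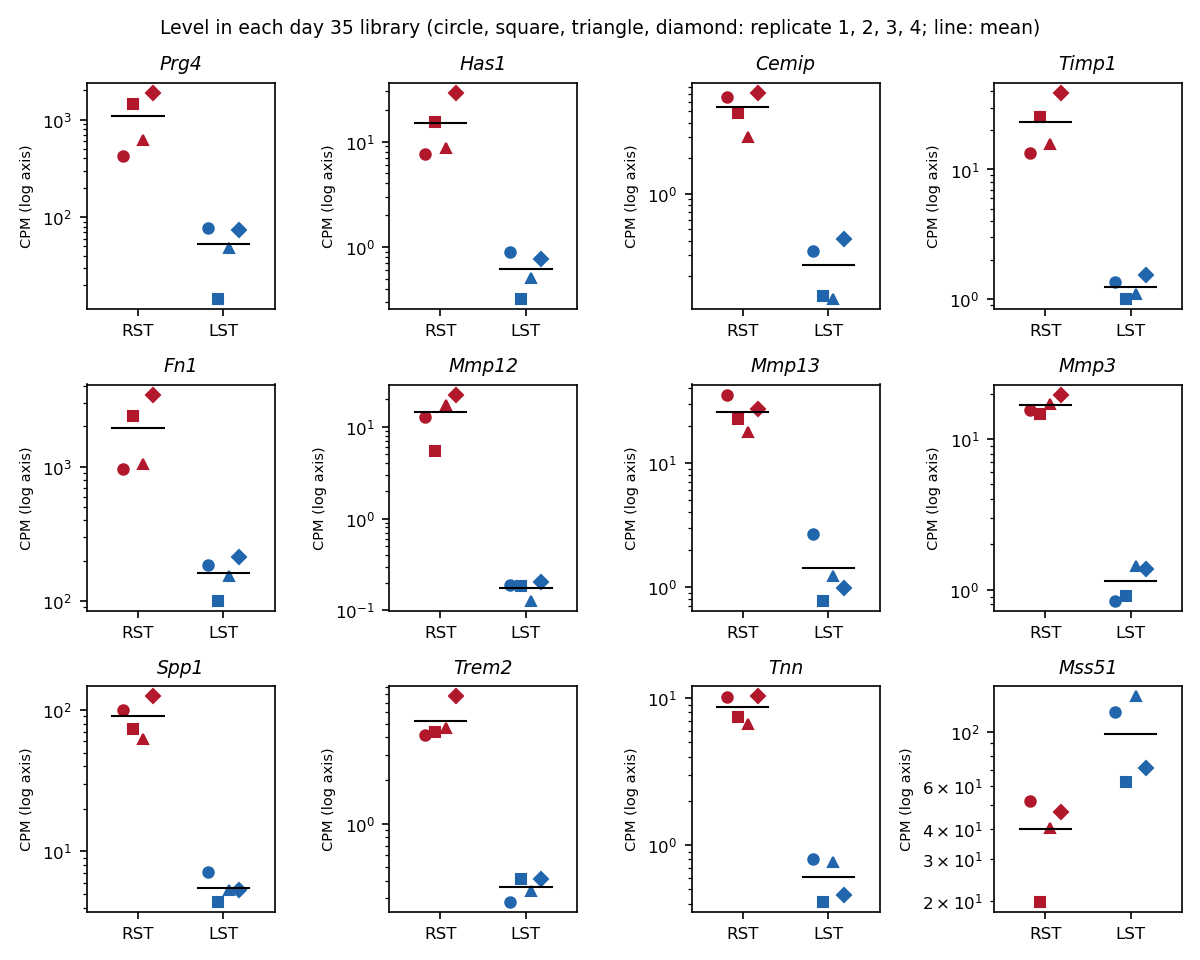
Level of 12 genes in each day 35 library, in CPM on a log axis, with RST in red on the left, LST in blue on the right and a line at the mean of 4. Each of the first 11 genes has all RST libraries above all LST libraries, as for Prg4 with 424 CPM at the lowest in RST against 77.0 CPM at the highest in LST, and Mss51 has all RST libraries below.

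Metalloproteases, the zinc enzymes that cut collagen and other matrix, and their inhibitors rose in 8 of 19 members tested (median log2 fold change 0.62). Mmp12, the elastase of macrophages, had the largest log2 fold change of the genes named here. Its level was 12.7, 5.50, 17.1 and 22.3 CPM in RST libraries 1 to 4, against 0.188, 0.182, 0.128 and 0.205 CPM in LST libraries 1 to 4. Every LST library rested on 3 or 4 reads, and every RST library on 102 or more. The log2 fold change was 6.33 ± 0.55 (edgeR adjusted p = 1.22e-06). Mmp13, the collagenase of cartilage and bone, had 35.4, 22.6, 17.7 and 27.2 CPM in RST libraries 1 to 4, against 2.69, 0.775, 1.24 and 0.972 CPM in LST libraries 1 to 4, with RST replicate 1 and LST replicate 1 the highest of their groups (log2 fold change 4.18 ± 0.58, edgeR adjusted p = 0.000164). Mmp3, stromelysin, had 15.6, 14.8, 17.1 and 19.7 CPM in RST libraries 1 to 4, against 0.848, 0.912, 1.45 and 1.38 CPM in LST libraries 1 to 4. Its RST libraries were close together, and its log2 fold change was 3.86 ± 0.46 (edgeR adjusted p = 3.38e-05).

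These 3 genes lie in a row of metalloprotease genes on mouse chromosome 9. On mm10, Mmp13 spans 7272514 to 7283331, Mmp12 spans 7344381 to 7369499 and Mmp3 spans 7445822 to 7455975, all on the plus strand. The neighbours tested did not pass. Mmp10, at 7502352 to 7510240, had 0 counts in all 8 libraries. Mmp8, the collagenase of neutrophils at 7558456 to 7568485, stood at −1.65 ± 0.81 on the log2 scale (edgeR adjusted p = 0.412). Mmp27, at 7571396 to 7581885, stood at 1.42 ± 0.62 (edgeR adjusted p = 0.313). The 3 genes that rose and Mmp10, with no count, stand in 1 row and had unlike counts. For that reason the 150 bases before 1 start of each of these 4 genes are shown. They are the plus strand of RefSeq's GRCm38.p6, from chr9:7272364-7272513, chr9:7347224-7347373, chr9:7445672-7445821 and chr9:7502192-7502341, with capitals marking TGANTCA, the letters of an AP-1 site. Counted from the start, with −1 the base before it, those letters begin at −35 in Mmp13, −44 in Mmp12, −46 in Mmp3 and −63 in Mmp10. The other capitals mark the letters TATAAA, which begin at −16 in Mmp13, −7 in Mmp3 and −29 in Mmp10.
Mmp13: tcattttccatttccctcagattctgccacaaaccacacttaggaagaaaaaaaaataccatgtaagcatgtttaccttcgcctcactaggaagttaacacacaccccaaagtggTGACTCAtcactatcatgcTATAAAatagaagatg
Mmp12: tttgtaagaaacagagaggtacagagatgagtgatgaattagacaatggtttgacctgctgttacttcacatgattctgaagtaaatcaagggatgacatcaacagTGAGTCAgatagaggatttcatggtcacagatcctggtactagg
Mmp3: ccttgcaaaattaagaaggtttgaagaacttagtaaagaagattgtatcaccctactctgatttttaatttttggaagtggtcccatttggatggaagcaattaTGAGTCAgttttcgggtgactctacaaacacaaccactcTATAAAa
Mmp10: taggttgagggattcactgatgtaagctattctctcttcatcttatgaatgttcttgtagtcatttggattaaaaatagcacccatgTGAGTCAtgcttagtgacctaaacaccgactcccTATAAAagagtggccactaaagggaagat

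The Mmp12 window belongs to the second of its starts, at 7347374, which lies inside the gene span given above. The window of its first start, chr9:7344247-7344396, holds neither motif and is not printed. Both motifs were searched on both strands, and TGANTCA reads the same on either. The AP-1 letters stand in such a window in 4.96% of the 27025 genes of the promoter table, in 3.9% of the 11752 tested genes it covers and in 11.3% of the 353 covered genes that were higher in RST. The second set of letters stands in 8.89, 4.92 and 7.93% of the same sets. A match is a description of letters, and Mmp10 carries both motifs with no read counted in the 8 day 35 libraries.

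Timp1, a secreted inhibitor of metalloproteases, had 13.4, 25.6, 15.7 and 38.6 CPM in RST libraries 1 to 4, against 1.37, 1.003, 1.11 and 1.53 CPM in LST libraries 1 to 4. RST replicates 2 and 4 were its highest libraries, and no library of one group reached into the range of the other (log2 fold change 4.22 ± 0.49, edgeR adjusted p = 3.17e-05). Mmp14, the membrane-bound activator of Mmp2, stood at 59.8 ± 15.9 CPM in RST and 17.2 ± 1.86 CPM in LST (SD, n = 4 each), and Mmp2, gelatinase A, at 153 ± 36.9 CPM in RST and 47.9 ± 2.51 CPM in LST. Their log2 fold changes were 1.80 ± 0.32 and 1.68 ± 0.30 (edgeR adjusted p = 0.00183 and 0.00183). Mmp19 rose by 2.40 ± 0.43, though it overlaps Tmem198b on the opposite strand, whose mean level was 70.4% of its own. Timp2 rose by 0.87 ± 0.20 (edgeR adjusted p = 0.0163) and lost the call without RST replicate 4 (0.0887), LST replicate 2 (0.0603) or LST replicate 3 (0.0513). Timp3 and Timp4 stood at −0.12 ± 0.14 and −0.21 ± 0.32, below the threshold, and so did Mmp9 at 0.62 ± 0.59.

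Of the ADAM and ADAMTS proteases, a single member of 23 rose (median 0.35). It was Adamts16, a secreted protease of the thrombospondin type, with 4.27, 9.004, 4.78 and 14.6 CPM in RST libraries 1 to 4, against 0.754, 0.684, 0.511 and 0.716 CPM in LST libraries 1 to 4 (log2 fold change 3.61 ± 0.49, edgeR adjusted p = 0.000141). The aggrecan-cutting enzymes Adamts4 and Adamts5 had log2 fold changes of 1.41 ± 0.47 and 0.27 ± 0.15 (edgeR adjusted p = 0.129 and 0.54). Among 20 cathepsin and lysosome genes 3 rose and 1 fell (median 0.26). Ctsk, the collagen-cutting cathepsin of osteoclasts and fibroblasts, had 60.9, 50.2, 41.4 and 72.0 CPM in RST libraries 1 to 4, against 10.7, 6.84, 8.35 and 6.65 CPM in LST libraries 1 to 4. That is a log2 fold change of 2.78 ± 0.36 with no overlap (edgeR adjusted p = 9.34e-05). Ctss, a cathepsin of antigen-presenting cells, rose by 2.02 ± 0.32 and Ctsh by 1.04 ± 0.22, while the widely expressed Ctsb stood at 0.40 ± 0.14 (edgeR adjusted p = 0.16).

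Without RST replicate 4, Ctsh had an edgeR adjusted p of 0.0513, and without RST replicate 1 the ADAM and ADAMTS count was 2. In the fit of the 8 day 35 libraries alone, 8 of the ADAM and ADAMTS genes and 8 of the cathepsin and lysosome genes passed upward. Plasminogen activation and serpin genes rose in 3 of 13 (median 0.57). F13a1, the clotting factor chain made by macrophages, had 40.4, 114, 67.5 and 160.5 CPM in RST libraries 1 to 4, against 18.4, 14.9, 20.7 and 21.7 CPM in LST libraries 1 to 4 (log2 fold change 2.34 ± 0.35, edgeR adjusted p = 0.000356). Plau and Plat, the plasminogen activators, stood at 0.32 ± 0.18 and 0.48 ± 0.24 and did not pass. The other rises were Plaur and Serpinf1, at 1.85 ± 0.48 and 0.74 ± 0.18, and the count of 3 was 1 without RST replicates 3 or 4 or any 1 LST library.

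Matricellular and adhesive glycoproteins rose in 15 of 27 (median 1.21). Fn1, fibronectin, had 964, 2389, 1044 and 3431 CPM in RST libraries 1 to 4, against 186, 101, 153 and 212 CPM in LST libraries 1 to 4. Alone it took 0.0813, 0.203, 0.0874 and 0.295% of all counts in RST libraries 1 to 4, against 0.0158, 0.00814, 0.0128 and 0.0178% in LST libraries 1 to 4. RST replicates 2 and 4 were high here as for Prg4 (log2 fold change 3.58 ± 0.45, edgeR adjusted p = 6.21e-05; chromosome 1, 71585520 to 71653200, minus strand). Spp1, osteopontin, had 100.5, 73.2, 62.8 and 125 CPM in RST libraries 1 to 4, against 7.16, 4.38, 5.32 and 5.32 CPM in LST libraries 1 to 4 (log2 fold change 4.03 ± 0.45, edgeR adjusted p = 2.56e-05). Cthrc1, a secreted protein of activated fibroblasts, had 12.2, 12.9, 8.32 and 18.3 CPM in RST libraries 1 to 4, against 0.801, 0.593, 0.852 and 0.512 CPM in LST libraries 1 to 4 (log2 fold change 4.21 ± 0.47, edgeR adjusted p = 2.56e-05). For both genes the 2 groups were far apart in all 8 libraries.

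Of the tenascins, 2 passed. Tnn, tenascin N, had 10.2, 7.44, 6.64 and 10.3 CPM in RST libraries 1 to 4, against 0.801, 0.410, 0.767 and 0.461 CPM in LST libraries 1 to 4. Tnc, tenascin C, had 59.3, 53.8, 32.7 and 109.8 CPM in RST libraries 1 to 4, against 8.62, 6.66, 6.13 and 5.53 CPM in LST libraries 1 to 4. Both are made where tissue is being rebuilt, and their log2 fold changes were 3.80 ± 0.58 and 3.24 ± 0.39 (edgeR adjusted p = 0.000461 and 3.38e-05). Tnxb, the tenascin of resting connective tissue, stood at 89.6 ± 18.1 CPM in RST and 103 ± 20.4 CPM in LST (SD, n = 4 each), a log2 fold change of −0.20 ± 0.19 that did not pass. Of the CCN family, Ccn5 rose by 2.41 ± 0.41, Ccn4 by 2.54 ± 0.57 and Ccn2 by 1.46 ± 0.30, whereas Ccn1 and Ccn3 stood at −0.01 ± 0.38 and 0.45 ± 0.20. The calls of Ccn4 and Ccn2 were lost without RST replicate 4 (edgeR adjusted p = 0.0917 and 0.0519).

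Postn, periostin, which binds collagen in healing tissue, had 43.4, 48.7, 35.3 and 63.2 CPM in RST libraries 1 to 4, against 11.9, 10.4, 13.8 and 10.5 CPM in LST libraries 1 to 4 (log2 fold change 2.03 ± 0.37, edgeR adjusted p = 0.00218). Sparc, the collagen-binding protein osteonectin, rose by 1.30 ± 0.24, and Spon2, a spondin, by 1.83 ± 0.26. Edil3, an integrin ligand that is on no list, had 7.26, 5.01, 4.88 and 7.96 CPM in RST libraries 1 to 4, against 0.235, 0.501, 0.298 and 0.512 CPM in LST libraries 1 to 4 and rose by 4.01 ± 0.48 (edgeR adjusted p = 3.45e-05). Of the thrombospondins, Thbs4 and Thbs3 passed at 0.90 ± 0.22 and 1.20 ± 0.25, and Thbs1 and Thbs2 did not, at 0.76 ± 0.44 and 1.21 ± 0.36. The call of Thbs4 was lost without RST replicate 4 (edgeR adjusted p = 0.136) and without LST replicates 1, 2 or 4 (0.0703 to 0.083). Thbs3 overlaps Mtx1 on the opposite strand, whose mean level was 82.9% of its own. Without RST replicate 4 the list had 10 members that rose.

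Collagen chains outside cartilage rose in 12 of 29 (median 0.91). Col1a1, the main fibril chain, had 711, 594, 472 and 894 CPM in RST libraries 1 to 4, against 204, 185, 188 and 200.4 CPM in LST libraries 1 to 4. Col3a1, the chain of early repair and soft tissue, had 981, 1130, 921 and 1591 CPM in RST libraries 1 to 4, against 259, 248, 274 and 302 CPM in LST libraries 1 to 4. No library of either group reached the range of the other (log2 fold changes 1.78 ± 0.34 and 2.10 ± 0.31, edgeR adjusted p = 0.00318 and 0.000309). Col1a2 rose by 1.50 ± 0.30, Col5a2 by 2.30 ± 0.33 and Col5a1 by 1.30 ± 0.31. The fibril-associated chains Col12a1, Col14a1 and Col16a1 rose by 1.61 ± 0.39, 1.02 ± 0.26 and 1.51 ± 0.35, and Col8a1 and Col8a2, network-forming chains, by 1.24 ± 0.30 and 1.38 ± 0.37.

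Basement membrane chains did not pass, with Col4a1 at 166 ± 18.3 CPM in RST and 162 ± 23.2 CPM in LST and Col4a2 at 127 ± 13.5 CPM in RST and 120.3 ± 15.0 CPM in LST (SD, n = 4 each; log2 fold changes 0.04 ± 0.15 and 0.07 ± 0.14). Of the type VI chains Col6a3 passed at 1.23 ± 0.28, and Col6a1 and Col6a2 stood at 0.91 ± 0.27 and 0.87 ± 0.25 (edgeR adjusted p = 0.0688 and 0.0688). The count of 12 was 4 without RST replicate 4 or LST replicate 2, 5 without LST replicate 1 and 6 without LST replicates 3 or 4. Col1a1, Col1a2, Col3a1 and Col5a2 passed in all 8 fits that leave out 1 library, and in the fit of the 8 libraries alone 16 chains passed.

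Of 28 genes that modify, fold or cross-link collagen 8 rose (median 0.70). P4ha3, a prolyl hydroxylase subunit, had 3.94, 5.01, 3.44 and 8.06 CPM in RST libraries 1 to 4, against 0.141, 0.456, 0.554 and 0.563 CPM in LST libraries 1 to 4. It rose by 3.55 ± 0.58 (edgeR adjusted p = 0.000946), whereas the more general subunits P4ha1 and P4ha2 stood at −0.11 ± 0.07 and −0.05 ± 0.07. The cross-linking oxidases Loxl2 and Loxl3 rose by 1.39 ± 0.28 and 1.25 ± 0.30 (edgeR adjusted p = 0.00627 and 0.0207). Plod2, the telopeptide lysyl hydroxylase, rose by 1.26 ± 0.27 and Fkbp10, a collagen chaperone, by 1.42 ± 0.32. Bmp1, which trims the procollagen tail, rose by 0.99 ± 0.25. The count was 2 without RST replicate 4, where Plod2 had an edgeR adjusted p of 0.0668, and 4, 5 and 5 without LST replicates 2, 3 and 4. P4ha3 and Loxl2 passed in all 8 such fits.

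Small leucine-rich proteoglycans, which sit on collagen fibrils, rose in 6 of 13 (median 0.64). Lum, lumican, had 147, 124, 100.5 and 121 CPM in RST libraries 1 to 4, against 36.9, 37.9, 34.5 and 30.6 CPM in LST libraries 1 to 4, with RST replicate 1 the highest (log2 fold change 1.82 ± 0.26, edgeR adjusted p = 0.000234). Bgn, biglycan, rose by 1.77 ± 0.30, Aspn, asporin, by 1.50 ± 0.24 and Kera, keratocan, by 1.08 ± 0.28. Dcn, decorin, had 519, 491, 593 and 606 CPM in RST libraries 1 to 4, against 384, 323, 361 and 350.5 CPM in LST libraries 1 to 4, a change of 0.64 ± 0.12 that still passed (edgeR adjusted p = 0.00379). Fmod, fibromodulin, and Ogn, osteoglycin, stood at 0.16 ± 0.18 and 0.47 ± 0.19. The count was 4 to 6 when 1 library was left out, and Lum, Bgn, Aspn and Dcn passed each time.

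Genes of elastic fibres and of latent TGF-beta binding rose in 5 of 18 (median 0.56). Ltbp2, which binds fibrillin, had 14.5, 14.4, 11.8 and 20.3 CPM in RST libraries 1 to 4, against 1.23, 0.866, 1.53 and 1.18 CPM in LST libraries 1 to 4 (log2 fold change 3.65 ± 0.39, edgeR adjusted p = 2.56e-05). Fbln7, a fibulin, had 21.6, 23.6, 24.1 and 35.6 CPM in RST libraries 1 to 4, against 3.30, 5.38, 3.96 and 4.96 CPM in LST libraries 1 to 4 (log2 fold change 2.58 ± 0.28, edgeR adjusted p = 2.56e-05). Ltbp2 and Fbln7 passed in all 8 fits that leave out 1 library, and the list's count was 2 without RST replicate 4 or LST replicates 3 or 4 and 3 without RST replicate 2 or LST replicates 1 or 2. Eln, elastin, and Fbn1, fibrillin 1, stood at 0.32 ± 0.20 and 0.37 ± 0.23 below the threshold.

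Cartilage genes rose in 6 of 18 tested (median 1.06), and the cartilage collagens were not among them. Acan, aggrecan, the large proteoglycan of cartilage, had 6.60, 6.20, 4.06 and 4.82 CPM in RST libraries 1 to 4, against 0.424, 0.319, 0.724 and 0.307 CPM in LST libraries 1 to 4. Its RST libraries lay more than 5-fold above the highest LST library (log2 fold change 3.57 ± 0.58, edgeR adjusted p = 0.000823). Hapln1, the link protein that ties aggrecan to hyaluronan, rose by 2.83 ± 0.71, Comp, a cartilage and tendon thrombospondin, by 2.16 ± 0.29 and Sox5, a chondrocyte transcription factor, by 2.28 ± 0.38. Col2a1 stood at 4.41 ± 2.02 CPM in RST and 1.94 ± 1.999 CPM in LST (SD, n = 4 each; log2 fold change 1.18 ± 0.90) and Col9a1 at 0.32 ± 0.41, neither past the threshold, and Sox9 was at 0.35 ± 0.26. Without RST replicate 4 or LST replicates 1 or 2 the count was 3, and Acan, Comp and Sox5 passed in all 8 fits that leave out 1 library.

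Of 13 osteoblast and mineral genes 1 rose (median 0.68, but −0.08 without RST replicate 1, 0.41 without LST replicate 2 and 0.34 without LST replicate 4). It was Enpp1, which makes the mineral inhibitor pyrophosphate, with 31.4, 49.0, 26.4 and 72.1 CPM in RST libraries 1 to 4, against 5.56, 5.24, 7.20 and 4.66 CPM in LST libraries 1 to 4 (log2 fold change 2.97 ± 0.36, edgeR adjusted p = 4.19e-05). The bone genes Ibsp, Bglap and Dmp1 ran over overlapping ranges in the 2 groups. Of 17 osteoclast genes 2 rose (median 0.74), Ctsk and the proton pump subunit Atp6v0d2 (3.18 ± 0.55, edgeR adjusted p = 0.00163). Acp5, the osteoclast phosphatase, stood at 1.31 ± 0.49 and Calcr, the calcitonin receptor, at 0.35 ± 0.39, below the threshold.

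Markers of recruited and lipid-handling macrophages rose in 14 of 24 (median 1.59). Trem2, a lipid-sensing receptor of macrophages, had 4.13, 4.37, 4.64 and 7.75 CPM in RST libraries 1 to 4, against 0.283, 0.410, 0.341 and 0.409 CPM in LST libraries 1 to 4. Its 3 lower RST libraries lay close together and replicate 4 stood above them, and all were more than 10-fold above the highest LST library (log2 fold change 3.84 ± 0.45, edgeR adjusted p = 3.38e-05; chromosome 17, 48346401 to 48354147, plus strand). Clec4d, a lectin receptor of myeloid cells, had 1.28, 2.32, 2.58 and 4.41 CPM in RST libraries 1 to 4, against 0.188, 0.0912, 0.128 and 0.153 CPM in LST libraries 1 to 4 (log2 fold change 4.19 ± 0.79, edgeR adjusted p = 0.00313). Gpnmb, a glycoprotein of lipid-laden macrophages, had 26.9, 13.5, 26.3 and 46.2 CPM in RST libraries 1 to 4, against 4.90, 4.01, 4.60 and 5.27 CPM in LST libraries 1 to 4. Lgals3, galectin 3, had 22.4, 24.5, 25.1 and 40.7 CPM in RST libraries 1 to 4, against 4.80, 3.15, 4.60 and 4.50 CPM in LST libraries 1 to 4. They rose by 2.59 ± 0.43 and 2.72 ± 0.38 (edgeR adjusted p = 0.00108 and 0.000166).

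Cd68, a lysosomal protein of macrophages, stood at 9.45 ± 3.29 CPM in RST and 2.99 ± 0.916 CPM in LST (SD, n = 4 each) and Adgre1, the F4/80 antigen, at 9.56 ± 3.60 CPM in RST and 3.32 ± 0.938 CPM in LST, and both passed, with log2 fold changes of 1.67 ± 0.40 and 1.52 ± 0.34 (edgeR adjusted p = 0.0204 and 0.0145). Csf1r, the receptor that keeps macrophages alive, and Ccr2, the receptor that brings monocytes in, stood at 0.60 ± 0.25 and 0.60 ± 0.30 without passing. Ly6c2, a monocyte surface gene, was at −1.35 ± 0.93, also below the threshold. The count of 14 was 8 without RST replicate 4, and without LST replicate 2 it was 9. The summed level of the 24 genes was 320.4 to 560 CPM in RST and 176 to 211 CPM in LST.

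Resident macrophage genes had 2 higher and 1 lower of 15 (median 0.33). Igf1, a growth factor, had 41.7, 41.7, 42.7 and 44.1 CPM in RST libraries 1 to 4, against 14.2, 16.3, 18.6 and 18.4 CPM in LST libraries 1 to 4 (log2 fold change 1.33 ± 0.24, edgeR adjusted p = 0.00183), and F13a1 was the other rise. Without RST replicate 1 the list had 4 rises. Cd163 and Lyve1, receptors of tissue-resident macrophages, stood at −0.22 ± 0.23 and 0.33 ± 0.22, and Retnla at −0.14 ± 0.32. Timd4, a receptor of long-lived resident macrophages, had 0.522, 0.485, 0.335 and 0.308 CPM in RST libraries 1 to 4, against 1.51, 0.593, 0.894 and 1.18 CPM in LST libraries 1 to 4, every RST library below every LST library (log2 fold change −1.32 ± 0.33, edgeR adjusted p = 0.0292). Its call was lost without RST replicates 2, 3 or 4 or LST replicates 1 or 4, at edgeR adjusted p of 0.0553 to 0.135.

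Complement and Fc receptor genes rose in 6 of 22 (median 0.82). C3ar1, the receptor of the C3a fragment, rose by 1.85 ± 0.43, and C1qa and C1qb, chains of the complement starter C1q, by 1.10 ± 0.25 and 1.16 ± 0.27. Fcgr3 and Fcgr2b, receptors of antibody tails, rose by 1.31 ± 0.29 and 1.04 ± 0.28. Without RST replicate 4 or without LST replicate 2, 0 of the 22 passed edgeR's test, with 10 and 11 above LST at an unadjusted p below 0.05. DESeq2 on all libraries passed 10. Over all 16149 genes tested, 1526 and 1670 had such an unadjusted p in those fits, in either direction, and DESeq2 passed 766 higher. Class II presentation and dendritic cell genes rose in 5 of 18 (median 0.63). Itgax, the integrin CD11c, had 2.94, 1.51, 3.15 and 5.95 CPM in RST libraries 1 to 4, against 0.707, 0.501, 0.426 and 0.358 CPM in LST libraries 1 to 4 (log2 fold change 2.75 ± 0.41, edgeR adjusted p = 0.000396), and Cd80, a costimulator, rose by 1.67 ± 0.31. H2-Eb1 and H2-Ab1, chains of the class II molecule, rose by 0.71 ± 0.17 and 0.65 ± 0.17, H2-Eb1 lost without RST replicates 3 or 4 or LST replicates 2 or 4 (edgeR adjusted p = 0.0589 to 0.0812) and H2-Ab1 without RST replicates 2, 3 or 4 or LST replicates 2, 3 or 4 (0.0886 to 0.117). The count of 5 was 2 without RST replicates 3 or 4 or LST replicates 2 or 4, and 3 without RST replicate 2 or LST replicate 3.

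Of 29 cytokine and receptor genes 4 rose (median 0.60). Il1rn, the antagonist of the interleukin-1 receptor, had 1.14, 1.40, 2.34 and 6.11 CPM in RST libraries 1 to 4, against 0.0942, 0.0912, 0.128 and 0.0512 CPM in LST libraries 1 to 4. RST replicate 4 was more than 2 times the next library, and the groups did not overlap (log2 fold change 4.81 ± 1.19, edgeR adjusted p = 0.0266). Its call was lost without RST replicate 4 (0.153) and without any 1 LST library (0.0706 to 0.0925). Il13ra1, a chain of the interleukin-4 and interleukin-13 receptor, had 9.73, 11.4, 11.4 and 13.2 CPM in RST libraries 1 to 4, against 4.90, 3.74, 4.68 and 4.50 CPM in LST libraries 1 to 4 and passed in all 8 fits that leave out 1 library (log2 fold change 1.36 ± 0.26, edgeR adjusted p = 0.00399). Il18, a cytokine of the interleukin-1 family, rose by 1.29 ± 0.35 and was lost without any 1 library but RST replicate 1 (edgeR adjusted p = 0.0576 to 0.156). It overlaps Bco2 on the opposite strand, whose mean level was 39.7% of its own. The list's count was 1 without RST replicate 4 or LST replicate 2 and 2 without LST replicates 1, 3 or 4. Il1b itself had 0.569, 1.35, 1.20 and 3.34 CPM in RST libraries 1 to 4, against 0.377, 0.182, 0.128 and 0.205 CPM in LST libraries 1 to 4, which at 2.83 ± 1.11 did not pass (edgeR adjusted p = 0.236), and Il6 stood at 0.10 ± 1.61.

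Chemokines rose in 5 of 24 tested (median 1.09). Ccl8, which draws monocytes and lymphocytes, had 1.14, 2.53, 2.44 and 3.85 CPM in RST libraries 1 to 4, against 0.377, 0.410, 0.596 and 0.461 CPM in LST libraries 1 to 4 (log2 fold change 2.40 ± 0.43, edgeR adjusted p = 0.00183). Ccl21a, which guides dendritic cells into lymph vessels, had 14.5, 15.4, 13.4 and 14.9 CPM in RST libraries 1 to 4, against 5.65, 5.47, 5.28 and 5.07 CPM in LST libraries 1 to 4, a tight pair of groups (log2 fold change 1.44 ± 0.25, edgeR adjusted p = 0.00163), although near-identical copies of Ccl21a exist and reads may be split among them. Ccl22, a dendritic cell chemokine, had 37 counts over RST and 3 over LST, a ratio of 13.3 with a 95% counting interval of 4.21 to 67.3, and its call held in 2 of the 8 fits that leave out 1 library. Cxcl12 and Cxcl14, chemokines of resting stroma, stood at −0.03 ± 0.12 and 0.06 ± 0.13, and Ccl2, the monocyte attractor, at 1.26 ± 0.51, below the threshold. The count of 5 was 2 without RST replicate 4 or LST replicates 2 or 3, and 3 without RST replicate 3 or LST replicates 1 or 4.

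Of 31 genes of TGF-beta and BMP signalling 3 rose (median 0.21, and 0.13 without RST replicate 4), namely Inhba, the activin A subunit, with 10.2, 13.8, 8.37 and 27.0 CPM in RST libraries 1 to 4, against 4.38, 2.14, 3.41 and 2.25 CPM in LST libraries 1 to 4, followed by Tgfb1 and Fstl1. Their log2 fold changes were 2.27 ± 0.43, 1.14 ± 0.27 and 0.97 ± 0.24 (edgeR adjusted p = 0.00322, 0.0188 and 0.0285). Tgfb1 lost the call without RST replicates 2 or 4 or LST replicates 2, 3 or 4 (edgeR adjusted p = 0.0517 to 0.124), and Fstl1 without any 1 library but RST replicate 1 (0.0539 to 0.137). The list's count was then 1 without RST replicates 2 or 4 or LST replicates 2, 3 or 4. Tgfb2 and Tgfb3 stood at −0.11 ± 0.08 and 0.22 ± 0.11.

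Of 22 Wnt ligands and antagonists 5 rose (median 0.12), and 2 of those were the secreted antagonists Sfrp2 and Sfrp4. Sfrp2 had 12.6, 12.1, 15.7 and 16.4 CPM in RST libraries 1 to 4, against 3.44, 3.33, 3.28 and 2.97 CPM in LST libraries 1 to 4. Sfrp4 had 22.2, 21.8, 31.7 and 30.1 CPM in RST libraries 1 to 4, against 8.38, 6.88, 8.13 and 8.39 CPM in LST libraries 1 to 4. They rose by 2.12 ± 0.29 and 1.73 ± 0.25 (edgeR adjusted p = 0.000166 and 0.00029). Rspo2, which strengthens Wnt signalling, rose by 3.04 ± 0.62 and Wnt16, a ligand of bone and joint tissue, by 1.69 ± 0.37. Rspo2 was lost without RST replicate 4 (edgeR adjusted p = 0.0554), and Wnt16 without LST replicate 2 (0.059), where the list's count was 3. Axin2, a common target of the pathway, stood at 0.01 ± 0.16.

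Fibroblast genes rose in 4 of 20 (median 0.39, and 0.25 without RST replicate 3). Lrrc15, a surface protein of activated fibroblasts, had 10.6, 7.55, 4.68 and 9.39 CPM in RST libraries 1 to 4, against 0.377, 0.501, 0.639 and 0.205 CPM in LST libraries 1 to 4 (log2 fold change 4.18 ± 0.56, edgeR adjusted p = 0.000131). Tnmd, tenomodulin of tendon, had 16.8, 12.7, 9.80 and 11.6 CPM in RST libraries 1 to 4, against 3.81, 6.06, 3.28 and 4.81 CPM in LST libraries 1 to 4 and rose by 1.50 ± 0.24, while Scx, the tendon transcription factor, stood at 0.11 ± 0.27. Fap, the fibroblast activation protein, rose by 1.41 ± 0.24 and Dpt, dermatopontin, by 1.11 ± 0.18. Pdgfra, Pdgfrb and Acta2, the smooth muscle actin of myofibroblasts, stood at 0.31 ± 0.19, 0.15 ± 0.18 and 0.15 ± 0.17, none past the threshold. In the lists of endoplasmic reticulum, glycolysis, and B and plasma cell genes, 2 of 20, 1 of 20 and 1 of 13 rose (medians 0.23, 0.00 and 0.24), the last of these being Sdc1, a syndecan that other cells carry too. Without RST replicate 4 the reticulum median was 0.14, and the B and plasma cell median was 0.02 to 0.43 with 1 library left out. The glycolysis call, Pfkp, was lost without any 1 library but RST replicate 1 (edgeR adjusted p = 0.0666 to 0.274). The reticulum calls were Kdelr3 and Sec24d, and Kdelr3 was lost without any 1 library but RST replicate 1 (0.0536 to 0.135), Sec24d without RST replicate 4 or LST replicates 1 or 2 (0.0521 to 0.109). On the opposite strand Pfkp overlaps Pitrm1, whose mean level was 389% of its own, and Kdelr3 overlaps Ddx17, at 4790%. A part of the reads of Pfkp and Kdelr3 may thus not be their own.

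Pkp1, a desmosome protein best known from skin, had 2.18, 6.25, 1.72 and 5.75 CPM in RST libraries 1 to 4, against 0.188, 0, 0.0852 and 0.307 CPM in LST libraries 1 to 4 (log2 fold change 4.77 ± 0.55, edgeR adjusted p = 3.1e-05). It was the 1 gene of 5 tested from the epidermis list that passed (median −0.12), and RST replicates 2 and 4 were its high libraries. The list's median was −0.03 without RST replicate 4, −0.07 without RST replicate 2 and −0.07 without LST replicate 3. The other epidermal genes tested, Krt10, Trp63, Sfn and Sbsn, stood at −0.12 ± 0.15, −0.18 ± 0.16, −0.20 ± 0.19 and 0.22 ± 0.32. Tmem196, a membrane protein, had 1.52, 4.31, 1.82 and 3.44 CPM in RST libraries 1 to 4, against 0.188, 0, 0.0852 and 0.256 CPM in LST libraries 1 to 4, again with RST replicates 2 and 4 high (log2 fold change 4.37 ± 0.59, edgeR adjusted p = 0.000145).

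**Figure D3:**
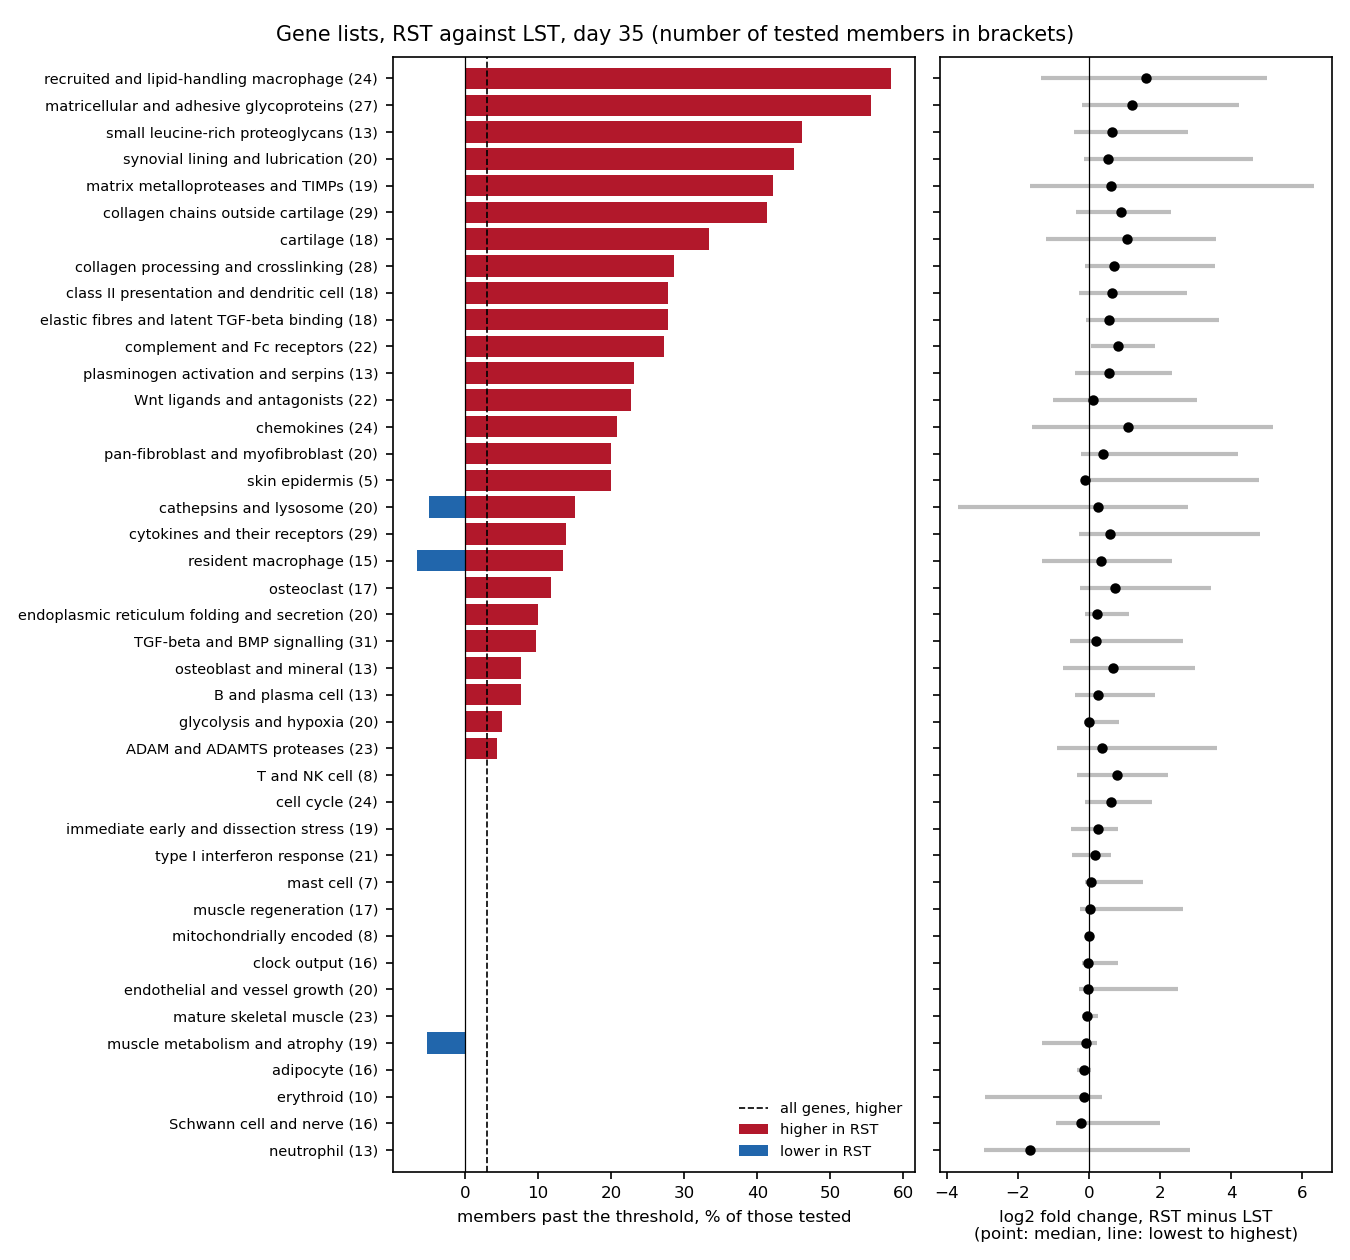
Share of the tested members of each of 41 gene lists past the threshold (left, in percent, red higher in RST and blue lower, dashed line at 2.92% of all genes) and the median and range of their log2 fold changes, RST minus LST (right). The recruited and lipid-handling macrophage list stands at the top, with 14 of 24 members higher and a median of 1.59. The neutrophil list stands at the bottom, with none past the threshold and a median of −1.65. All 41 lists were chosen with earlier results of these data known.

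Of 41 lists, 14 had no member past the threshold. Together they held 217 tested genes, of which 12 were higher and 12 lower at an unadjusted p below 0.05 in edgeR's test. DESeq2 passed 4 higher and 1 lower. Over all 16149 genes tested, 2021 had such an unadjusted p in either direction, and DESeq2 passed 766 higher and 17 lower. Mature skeletal muscle genes had a median of −0.05 over 23 members, with extremes of 0.24 for the slow troponin Tnnt1 and −0.20 for the myosin Myh1. In 1 of them, the skeletal actin Acta1, every RST library lay below every LST library, at 33750 to 36490 CPM against 38070 to 40940 CPM. Its log2 fold change was −0.15 ± 0.17 (edgeR adjusted p = 0.872), and ranges lay that way in 306 of all genes (1.89%). Muscle regeneration genes had a median of 0.03 over 17, with the regulators Myog and Myod1 at 0.04 ± 0.37 and −0.09 ± 0.28 and the fusion factor Mymk at 2.54 ± 0.83 (edgeR adjusted p = 0.11). Fat cell genes had a median of −0.13 over 16, and of −0.24 to 0.00 with 1 library left out, and endothelial genes one of −0.03 over 20. Cell cycle genes had a median of 0.61 over 24 with 20 of 24 above 0, against 8726 of all 16149 genes. The median was 0.40 without RST replicate 4, and Cenpf, a mitotic protein, was nearest to the threshold at 1.77 ± 0.53 (edgeR adjusted p = 0.0732). T and NK cell genes had a median of 0.78 over the 8 tested of 18, with 7 of 8 above 0. Medians were 0.18 for the type I interferon response (0.10 to 0.12 without RST replicates 3 or 4 or LST replicate 2), 0.24 for immediate early and stress genes and −0.03 for clock genes.

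Of 16 Schwann cell and nerve genes 0 passed by edgeR or DESeq2, and 3 were lower at an unadjusted p below 0.05 in edgeR's test. Such a p, in either direction, was reached by 2021 of all 16149 genes tested. Without LST replicate 2, or with no filter on low counts, 2 passed as lower. Prx, periaxin, had 8.64, 3.94, 7.03 and 5.80 CPM in RST libraries 1 to 4, against 8.86, 4.56, 18.9 and 13.8 CPM in LST libraries 1 to 4. LST replicates 3 and 4 were high and LST replicate 2 was among the low libraries, so the groups overlapped (log2 fold change −0.86 ± 0.31, edgeR adjusted p = 0.166). The list's median was −0.23 over 16 genes, and 0.00, −0.13 and −0.12 without LST replicate 3, LST replicate 4 and RST replicate 2.

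Genes lower in RST numbered 8 of the 479 that passed, and 62 of the 983 that passed in the fit of the 8 libraries alone. With a term for replicate number added to that fit (a replicate block), they numbered 211 of the 1381 that passed. Of the 8 falls, the 6 that carry gene names are Ctse, Ermap, Ryr3, Timd4, Mss51 and Tceal7, and each lost its call without some libraries. Mss51, a regulator of muscle metabolism, was the fall with the most reads (chromosome 14, 20482867 to 20496901, minus strand). It had 51.9, 19.8, 40.1 and 47.0 CPM in RST libraries 1 to 4, against 121, 62.5, 141 and 71.2 CPM in LST libraries 1 to 4, every RST library below every LST library (log2 fold change −1.32 ± 0.33, edgeR adjusted p = 0.027). Without LST replicates 1 or 3 or RST replicates 2, 3 or 4 its edgeR adjusted p was 0.0657 to 0.115. The other 18 genes of muscle metabolism and atrophy did not pass, with the ubiquitin ligases Trim63 and Fbxo32 at −0.08 ± 0.16 and −0.13 ± 0.22.

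Tceal7 had 18.1, 18.9, 25.5 and 20.5 CPM in RST libraries 1 to 4, against 24.9, 34.1, 33.7 and 29.6 CPM in LST libraries 1 to 4, with RST replicate 3 above LST replicate 1 (log2 fold change −0.56 ± 0.14, edgeR adjusted p = 0.0242). It was lost without RST replicates 1, 2 or 4 or LST replicates 2, 3 or 4 (edgeR adjusted p = 0.0527 to 0.103). Bex1 overlaps Tceal7 on the opposite strand, with a mean level 58.8% of that of Tceal7. Ryr3, a calcium release channel, had 0.617, 0.377, 0.382 and 0.308 CPM in RST libraries 1 to 4, against 1.23, 0.730, 1.15 and 1.84 CPM in LST libraries 1 to 4 (log2 fold change −1.52 ± 0.40, edgeR adjusted p = 0.0391). Its mean of 0.83 CPM over the 8 libraries lies under that of Aven, an overlapping gene on the opposite strand at 21.1 CPM. It was lost without any 1 library but RST replicate 1 or LST replicate 2 (0.0747 to 0.161).

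Ermap, an erythroid membrane protein, had 0.190, 0.108, 0 and 0.103 CPM in RST libraries 1 to 4, against 2.21, 0.456, 0.937 and 0.205 CPM in LST libraries 1 to 4. Ctse, a cathepsin, had 0.190, 0, 0.0478 and 0 CPM in RST libraries 1 to 4, against 1.93, 0.547, 0.894 and 0.0512 CPM in LST libraries 1 to 4. Both were highest in LST replicates 1 and 3, and Ctse overlapped between the groups. Their log2 fold changes were −3.19 ± 0.80 and −3.68 ± 0.99 (edgeR adjusted p = 0.0283 and 0.0419), and without LST replicate 1 they were lost at 0.141 and 0.169. Ermap was also lost without LST replicate 3 or RST replicates 2, 3 or 4 (0.0606 to 0.105), and Ctse without LST replicates 2 or 3 or RST replicates 2, 3 or 4 (0.0692 to 0.161).

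Some genes of developing red and white blood cells were also highest in LST replicates 1 and 3. Slc4a1, the anion exchanger of red cells, had 0.902, 1.19, 0.574 and 0.257 CPM in RST libraries 1 to 4, against 9.61, 2.42, 6.09 and 0.563 CPM in LST libraries 1 to 4. Mpo, the peroxidase made by young neutrophils, had 0.664, 0.0539, 0 and 0 CPM in RST libraries 1 to 4, against 2.97, 0.775, 1.11 and 0.153 CPM in LST libraries 1 to 4. Neither passed (edgeR adjusted p = 0.129 and 0.355). The summed level of the 15 neutrophil genes was 5.59 to 23.4 CPM in RST, highest in replicate 1, and 6.45 to 73.4 CPM in LST, highest in replicates 1 and 3. The median of the 13 tested was −1.65, and −0.85 without LST replicate 1. Lower at an unadjusted p below 0.05 in edgeR's test were 5 of them, and 0 without LST replicate 1, RST replicate 2 or RST replicate 3. With all libraries kept, 2021 of all 16149 genes tested had such a p in either direction. Others of the neutrophil list were highest in RST replicate 4, with 2.93 CPM of Csf3r, 0.616 CPM of Cxcr2 and 3.34 CPM of Il1b. The red cell enzyme Alas2 was highest in RST replicate 2, at 9.92 CPM. Haemoglobin genes did not follow, with Hba-a1 at 27.6, 56.7, 41.6 and 47.4 CPM in RST libraries 1 to 4, against 52.1, 36.8, 32.5 and 28.3 CPM in LST libraries 1 to 4. The part of blood-forming cells in the falls of Ermap and Ctse was not tested.

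**Figure D4:**
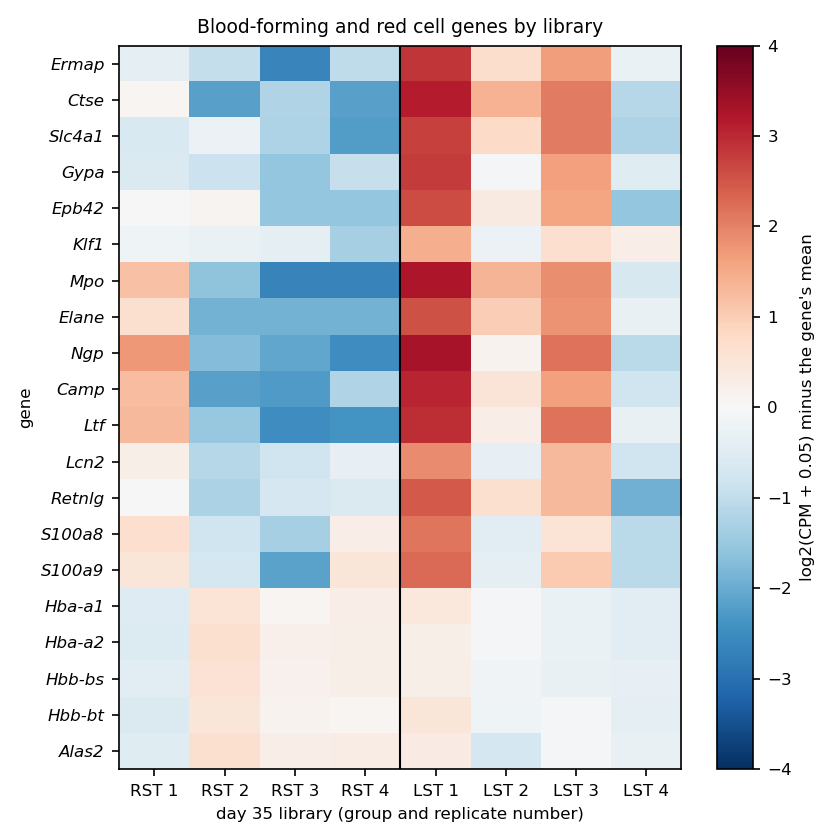
Level of 20 blood-forming and red cell genes (rows) in each day 35 library (columns, RST left and LST right of the line), as log2(CPM + 0.05) minus the gene's mean. Rows from Ermap to S100a9 are highest in LST replicate 1, as for Slc4a1 with 9.61 CPM, and the rows of the haemoglobins and Alas2 do not share that pattern, nor do Csf3r, Cxcr2 and Il1b, which are not drawn.

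RST was also sampled on 4 earlier days. The mean RST level was lowest on day 35 for 333 of the 471 genes that rose (70.7%, against 36.7% of all genes), and the highest mean fell on day 7 for 277 of them (58.8%, against 27.1% of all genes) and on day 35 for 19 (4.03%, against 31.2%). Tnn had means of 30.0 ± 3.71, 242 ± 16.3, 124 ± 58.4, 52.5 ± 48.2 and 8.64 ± 1.87 CPM on RST days 3, 7, 14, 21 and 35 (SD, n = 4 each). Acan had 9.07 ± 1.25, 153 ± 28.6, 101 ± 42.9, 31.9 ± 24.9 and 5.42 ± 1.18 CPM on the same days. For both, the day 35 mean was below that of day 3.

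Prg4 had 471 ± 38.4, 976 ± 154, 988 ± 369, 1092 ± 744 and 1087 ± 679 CPM on RST days 3, 7, 14, 21 and 35, and Has1 had 9.14 ± 4.74, 22.0 ± 7.56, 18.4 ± 9.29, 14.2 ± 10.1 and 15.1 ± 9.69 CPM. Fn1 had 703 ± 103, 2484 ± 326, 2533 ± 813, 2369 ± 1702 and 1957 ± 1181 CPM, with SDs on days 21 and 35 above those of the earlier days. Pkp1 had 0.464 ± 0.0766, 0.811 ± 0.168, 1.35 ± 0.413, 1.85 ± 0.838 and 3.98 ± 2.35 CPM, with its highest mean on day 35.

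RST day 35 was tested against RST day 21, a comparison that shares the RST day 35 libraries with the one above. By edgeR 641 genes passed (3.97%), 13 higher (0.0805%) and 628 lower (3.89%) on day 35. Of the genes above, Tnn fell by 2.61, Acan by 2.57, Spp1 by 1.86, Cthrc1 by 1.91, Tnc by 1.68 and Postn by 2.66 on the log2 scale (edgeR adjusted p = 0.00342, 0.00311, 0.0173, 0.0058, 0.0157 and 0.00311). The same genes had log2 fold changes of 3.80, 3.57, 4.03, 4.21, 3.24 and 2.03 against LST. The change since day 21 was −0.01 ± 0.48 for Prg4, 0.07 ± 0.51 for Has1, −0.21 ± 0.32 for Mmp12, 0.05 ± 0.33 for F13a1 and 0.05 ± 0.25 for Htra1, none past the threshold. It was 1.07 ± 0.39 for Pkp1 (edgeR adjusted p = 0.104).

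The count of 641 depended on single libraries. It was 68, 52 and 41 without RST day 35 replicates 1, 2 and 3, and 1357, 35, 1901 and 196 without RST day 21 replicates 1, 2, 3 and 4. In a fit of the 8 libraries of days 21 and 35 alone edgeR passed 0 genes, with 3064 at an unadjusted p below 0.05, and DESeq2 on all joint libraries passed 1216.

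**Figure D5:**
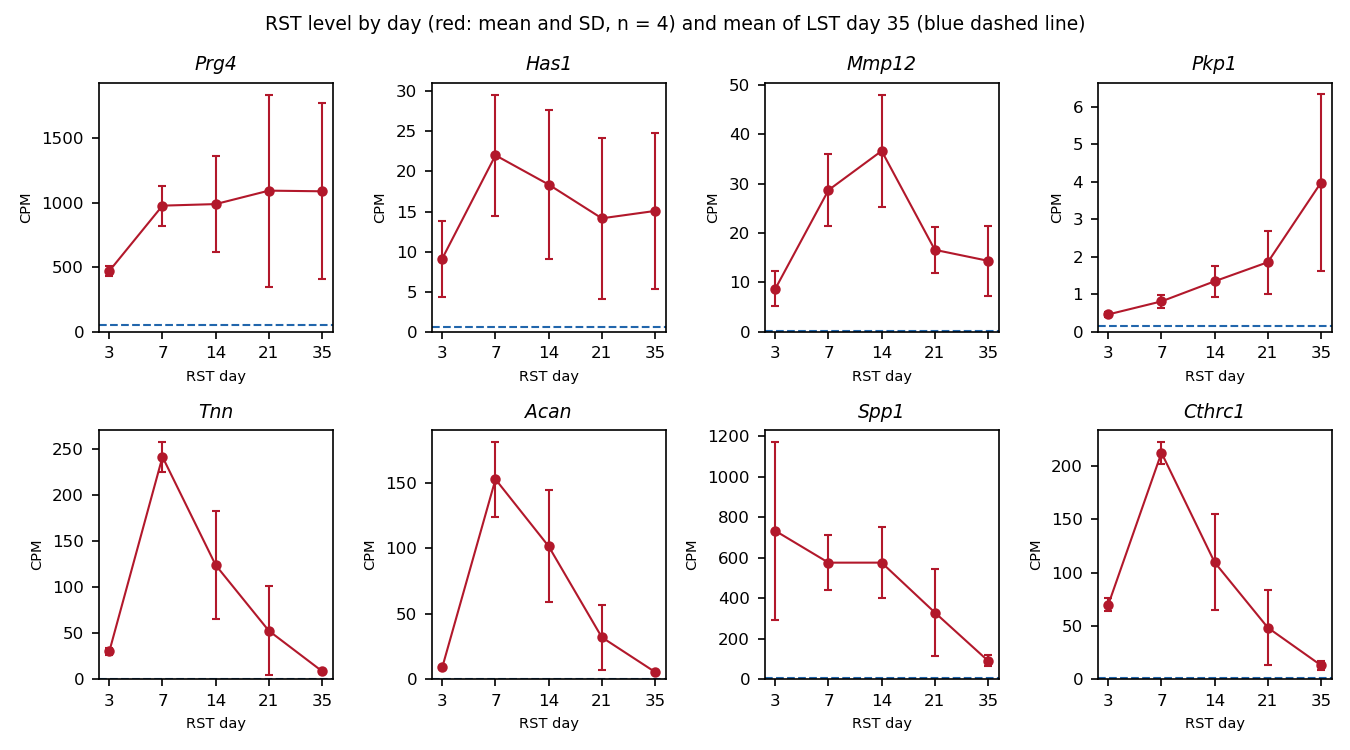
Mean RST level of 8 genes on days 3, 7, 14, 21 and 35 (red points, CPM, bars of 1 SD, n = 4 each; days evenly spaced), with the mean of LST day 35 as a dashed blue line. Prg4 and Has1 have means on day 35 within 1 SD of those on day 21, Pkp1 has its highest mean there, and Tnn, Acan, Spp1 and Cthrc1 come down, to 8.64 CPM for Tnn on day 35 against 0.610 CPM in LST.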

How the data were processed

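RNA from joint soft tissue of C57BL/6 mice was extracted with Trizol and made into libraries with NEBNext Ultra II from 100 ng, per the labels' protocols. The authors deposited raw read counts per gene. Reads were trimmed with fastp and aligned with STAR to mm10, per the submitters' processing notes. For the counting program, annotation and strand setting the sources used here give nothing, so reads of genes that overlap on opposite strands may be shared. Gene names came from GENCODE M21 and matched 36591 of 36604 identifiers.

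The counts were analysed with edgeR 4.0.16 in R 4.3.3: filterByExpr with a minimum count of 10, TMM normalisation, and the quasi-likelihood F test over all 24 joint libraries (18 residual degrees of freedom), with Benjamini-Hochberg adjustment over all genes and a threshold of 0.05. The pipeline was tested on simulated data. Standard errors are the log2 fold change divided by the square root of F. The mitochondrial share counts protein-coding mitochondrial genes. Replicates differed by more than sampling noise. Groups came from the titles, and nothing states that replicates are separate animals. Alternatives were RLE and upper quartile scaling, no filter, DESeq2 1.42.0, a robust fit, the 8 libraries alone, a replicate block and each library left out.

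The comparison and the 41 gene lists, with 744 genes tested, were chosen with earlier results of these data known. Genes were named by rule: the 20 largest rises and falls without overlap whose higher group averaged 50 counts or more, every fall, up to 4 called members of each list, and all called members of the lining, metalloprotease and matricellular lists, leaving out predicted genes, clones and pseudogenes. Further list members were named after their values were seen. A few genes counted in the lists are not reported here. Over the lists 130 genes were called higher and 3 lower.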

Additional observations from a re-analysis of the deposited data

Results flagged for a closer look

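The 15 values below stood apart from the other 3 libraries of their group by Dixon's criterion, of 270 groups of 4 libraries examined. Chance sets apart about 1 in 20 groups. In RST, replicate 4 was the highest library for 5 genes. It held 6.11 CPM of Ccn4, a matricellular protein, beside 2.44 to 2.71 CPM in the others, and 5.29 CPM of the chemokine Cxcl16 beside 3.61 to 3.89 CPM. It held 40.7 CPM of Lgals3, galectin 3, beside 22.4 to 25.1 CPM, and 13.9 CPM of Tnfaip6, a hyaluronan-binding protein, beside 3.35 to 4.75 CPM. Its 7.75 CPM of Trem2, the macrophage receptor, stood beside 4.13 to 4.64 CPM.

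The low RST values were 2. Acta1, skeletal actin, had 33800 CPM in replicate 1 beside 36100 to 36500 CPM, and Serpinf1, a secreted serpin, had 77.3 CPM in replicate 2 beside 94.0 to 96.1 CPM. In LST, replicate 2 was low for Dpt, dermatopontin, with 66.7 CPM beside 72.7 to 73.2 CPM, and for Sfrp4 with 6.88 CPM beside 8.13 to 8.39 CPM. LST replicate 3 had 2.09 CPM of Kit, the stem cell factor receptor, beside 1.0 to 1.13 CPM, and 1.70 CPM of Tnfaip6 beside 1.14 to 1.18 CPM. It had 2.51 CPM of Spon2 beside 3.42 to 3.58 CPM, and 0 CPM of Ccl22 beside 0.0456 to 0.0512 CPM. LST replicate 1 had 15.2 CPM of Junb, an AP-1 subunit, beside 20.2 to 20.9 CPM. LST replicate 4 had 0.102 CPM of Mymx, a muscle fusion peptide, and the others had none. Over all LST libraries Ccl22 had 3 reads and Mymx had 2, so the flags of both rest on few reads.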

How the results depend on the processing

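The count of 479 was 451 to 469 under RLE and upper quartile scaling and a robust fit, 751 with no filter, 783 with DESeq2, 983 in the 8 libraries alone and 182 to 546 with 1 library left out. The 357 genes at least 2-fold apart were 339 to 501 under those settings and 163 to 406 with 1 library left out. The 108 named genes that passed were 106 to 108, and 69 to 105 with 1 library left out. Without RST replicate 4 the 3 counts were 182, 163 and 69, without LST replicate 2 the first 2 were 215 and 196, and without LST replicate 4 they were 266 and 236. The 641 genes of RST day 35 against RST day 21 were 522 to 736 under other scalings and a robust fit, 1139 with no filter, 1216 with DESeq2, 0 in the 8 libraries alone and 35 to 1901 with 1 library left out. The difference in mitochondrial share was −0.17 to 0.376 percentage points with 1 library left out and −0.0325 without the 20 most abundant nuclear genes. The cause of these shifts was not tested. With a replicate block the counts were 348, 287, 98 and 661, and 1381 genes passed with the block in the 8 libraries alone. Of these 1170 were higher and 211 lower (84.7% higher, against 98.3% of the 479 and 93.7% of the 983), with 3 Schwann cell and nerve genes and 7 neutrophil genes lower. Deviations of same-numbered RST and LST libraries correlated at 0.083 to 0.191 (0.083, 0.139, 0.091 and 0.191). Those of unlike number correlated at −0.215 to 0.116. Because 2 of the 4 were under 0.1 and the labels state no pairing, the numbers were not taken as a pairing. As a hint from the data, RST replicates 2, 3 and 4 each correlated best with their own number, and RST replicate 1 with LST replicate 2 (0.116). On the second principal component, with 14.7% of the variance, replicates 1 and 2 stood at 17.6 to 19.3 in RST and 13.1 to 15.7 in LST, and replicates 3 and 4 at −14.8 to −11.7 in RST and −27.5 to −11.7 in LST. Of the named genes' single values under all alternatives, 1967 kept their side of the threshold, 178 lost it and 31 gained it, and no direction was reversed. Low genes rest on few reads, such as 3 or 4 per LST library for Mmp12.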
